A study of Mus musculus with 20 samples.

Results

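The cytosolic heat shock genes described here are 10 genes taken by name: Hspa1a and Hspa1b, Hspa8, Hsph1, Dnajb1, Hspb1, Hsp90aa1, Hsp90ab1, Bag3 and Hsf1. They are 10 of the 42374 genes of the count table, and each of them passed the filter on low counts that left 13971 genes for testing. RNA was sequenced from muscle endothelial cells, the lining of the muscle's blood vessels, sorted as CD31-positive and CD45-negative cells from C57BL/6N mice. The soleus stood for oxidative muscle and the extensor digitorum longus for glycolytic muscle. Mice were wild type or carried an endothelial deletion of Atf4 (Atf4 ECKO), so there were 4 groups: glycolytic wild type, oxidative wild type, glycolytic ECKO and oxidative ECKO, with 5 libraries each. Every group had received tamoxifen, 1 mg per day for 5 days, starting at 8 to 10 weeks of age, and at least 7 days then passed. The wild type animals were littermates without Cre, so they lacked the recombinase as well as the deletion. The labels do not name the Cre line. They do not say whether the libraries of a group came from separate animals either, so p-values reflect how far these libraries spread and that spread may be technical.

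Heat shock proteins are molecular chaperones that bind unfolded stretches of other proteins in the cytosol. HSP70 proteins (Hspa1a, Hspa1b and Hspa8) hold and release clients in a cycle driven by ATP, J-domain proteins such as Dnajb1 deliver clients and start the cycle, and nucleotide exchange factors such as Hsph1 and Bag3 end it. HSP90 proteins (Hsp90aa1 and Hsp90ab1) act later on kinases, receptors and other clients, and the small heat shock protein Hspb1 holds unfolding proteins without using ATP. Heat, oxidants and other protein damage free the transcription factor Hsf1 to bind heat shock elements, repeats of the letters GAA and TTC, in the promoters of the inducible members. Hspa8 and Hsp90ab1 are the constitutive members of their families, made in unstressed cells.

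Hspa1a and Hspa1b are near copies that lie side by side, and their sequences are shown first because they limit what can be said of either gene alone. Hspa1a (ENSMUSG00000091971.3) lies on chromosome 17, 34969190 to 34972156, minus strand, and Hspa1b (ENSMUSG00000090877.3) on chromosome 17, 34956436 to 34959238, minus strand, both on GRCm38. Of the 2868 stretches of 100 bases (the read length) in the Hspa1a transcript, 1350 also occur in Hspa1b, which is 47.1% of the former and 49.9% of the 2704 stretches of the latter. The estimated counts of each gene thus depend on how the authors' quantification split the shared reads, so their sum, called Hspa1a+Hspa1b, was tested as well. The 250 bases before the start site, from RefSeq on GRCm38.p6, are printed 5′ to 3′ on the gene's strand for both genes and for Hspb1. Capitals mark GAANNTTC, a head to head pair of heat shock units.
Hspa1a, chr17:34972157-34972406, minus strand: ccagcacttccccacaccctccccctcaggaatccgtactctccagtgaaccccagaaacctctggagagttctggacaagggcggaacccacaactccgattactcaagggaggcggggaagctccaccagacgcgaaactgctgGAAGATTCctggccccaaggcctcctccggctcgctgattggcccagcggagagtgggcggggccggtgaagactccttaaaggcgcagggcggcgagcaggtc
Hspa1b, chr17:34959239-34959488, minus strand: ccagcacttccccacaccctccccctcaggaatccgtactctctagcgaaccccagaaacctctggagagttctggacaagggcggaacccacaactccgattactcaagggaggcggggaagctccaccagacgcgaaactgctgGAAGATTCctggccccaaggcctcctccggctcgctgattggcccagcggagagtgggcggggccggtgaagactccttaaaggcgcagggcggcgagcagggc
Hspb1, chr5:135887669-135887918, plus strand: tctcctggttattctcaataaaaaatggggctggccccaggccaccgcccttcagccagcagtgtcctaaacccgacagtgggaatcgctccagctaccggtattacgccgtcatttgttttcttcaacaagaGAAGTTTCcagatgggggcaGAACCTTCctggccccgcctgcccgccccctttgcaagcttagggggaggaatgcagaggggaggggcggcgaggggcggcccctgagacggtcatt
The windows of the HSP70 pair were identical at 247 of 250 positions, or 98.8%. Counted from 1 at the 5′ end of the printed run, the differences from Hspa1a to Hspa1b were C44T, T47C and T249G, so none fell in the capitals.

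Promoter windows, which run from 250 bases before to 50 after a start site, were found in RefSeq for Hspa1a, Hspa1b, Hsph1, Dnajb1, Hspb1 and Bag3. They were searched on both strands against 32851 such windows of all genes. GAANNTTC, which reads the same on both strands, was present in 7.86% of all windows. It stood at position -104 from the start of both Hspa1a and Hspa1b, at -117 and -97 in Hspb1, at position 43 after the start of Bag3, and at 42 or 21 after that of Hsph1, depending on the start site. The 3-unit element GAANNTTCNNGAA, which contains it, was in 0.603% of all windows and, among the genes listed, in Hsph1, where it starts at 37 or 16 and holds that pair. TTCNNGAA, the tail to tail pair, was in 8.52% of windows and in Hsph1, upstream of the start at -33 or -54 and inside the 3-unit element. The CCAAT box, in 37.4% of windows, stood at -67 in both Hspa1a and Hspa1b, and was also in Hsph1 and Dnajb1. None of these 3 heat shock forms was in the window of Dnajb1. The letters TGACGTCA of the ATF/CREB site, present in 1.79% of all windows, and TGATGCAA of the C/EBP-ATF core, in 0.895%, were in none of the windows of these 6 genes. A match or its absence describes these letters in this window and nothing of binding.

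Library totals ranged from 8013223 to 21720127 counts, and levels are given as CPM, counts scaled to a common library size with TMM factors. Atf4 stood at 243 to 281 CPM in glycolytic and 535 to 589 CPM in oxidative wild type, and at 5.79 to 8.70 CPM in the 10 ECKO libraries, so Atf4 RNA was low in each of them. Summed endothelial markers were high in all groups, 7167 to 8206 CPM, and no defining marker of another cell type was at 0 in all libraries of a group. Summed immune markers were 299.6 to 392 CPM in oxidative wild type, 48.6 to 101 in oxidative ECKO, 36.3 to 42.7 in glycolytic wild type and 21.7 to 23.2 in glycolytic ECKO, although the sort had excluded CD45. Summed mural (pericyte and smooth muscle) markers were 445 to 550.5 CPM, 638 to 951, 683 to 716 and 1468 to 1494 CPM in the same order. Genes induced by tissue handling (Fos, Fosb, Jun, Junb, Egr1, Ier2, Dusp1 and Zfp36) summed to 5486 to 7317, 3188 to 4282, 3458 to 3611 and 2495 to 2592 CPM in that order too, and the part of these markers in the results below was not tested. The share of counts from mitochondrial genes, a sign of RNA quality or cell state, moved with the groups as well. It was 11.3% to 14.2% in oxidative wild type, 7.36% to 10.6% in oxidative ECKO, 5.73% to 6.14% in glycolytic wild type and 5.49% to 5.66% in glycolytic ECKO. In cells sorted in bulk, fewer cells of a type and less RNA per cell cannot be told apart.

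The oxidative libraries fell into sets that stood apart. Wild type libraries 3 and 5 and ECKO libraries 3, 4 and 5 carried 218 to 424 CPM of summed fibroblast markers, against 138 to 157 CPM in wild type libraries 1, 2 and 4 and 61.1 to 62.1 CPM in ECKO libraries 1 and 2. Sex-specific RNA was mixed as well. Oxidative ECKO libraries 1, 2 and 3 held both Xist (18.0 to 43.8 CPM) and Y-linked RNA (32.2 to 65.6 CPM). Oxidative ECKO libraries 4 and 5 and glycolytic ECKO held Xist with at most 1.55 CPM of Y-linked RNA. Wild type held 92.1 CPM or more of Y-linked RNA with at most 0.274 CPM of Xist. Genotype and sex-specific RNA therefore cannot be told apart in the comparisons of ECKO with wild type. Oxidative ECKO libraries 1, 2 and 3 also differed from glycolytic ECKO in Y-linked RNA. The ECKO muscle comparison, and the difference in genotype effect between the muscles, thus carry a difference in sex-specific RNA too. Libraries 4 and 5 were the oxidative ECKO libraries that resembled glycolytic ECKO in Y-linked RNA. Results that involve oxidative muscle are given below with all libraries, and with each fibroblast set alone where that changed a call. The split, below or at least 200 CPM, was chosen after the data had been seen. It leaves 2 or 3 oxidative libraries per genotype, and 7 of the 10 genes separated along it in each genotype. Spread within a set is therefore smaller by selection, and p-values of the sets are no firmer evidence than those with all libraries. Changes of direction without a call are listed with the effects of processing.

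The sum of the inducible HSP70 pair differed far more than the other members in each of the 4 comparisons of 2 groups. In glycolytic wild type libraries 1 to 5 the sum was 156, 159, 179.9, 161 and 157 CPM. In oxidative wild type it was 649.5, 618, 364, 623 and 389 CPM. In glycolytic ECKO it was 46.3, 52.4, 47.8, 44.4 and 47.7 CPM, and in oxidative ECKO 140.0, 151, 115, 78.0 and 76.9 CPM. No neighbouring groups overlapped in this order: the lowest oxidative wild type library lay above the highest glycolytic wild type library, which group lay above oxidative ECKO, which lay above glycolytic ECKO. Group means were 529 CPM ± 139.9 (SD, n = 5) in oxidative and 162 CPM ± 9.92 in glycolytic wild type, and 112 CPM ± 34.3 in oxidative and 47.7 CPM ± 2.96 in glycolytic ECKO. The mitochondrial share in oxidative ECKO libraries 1 to 5 was 10.6%, 9.97%, 8.46%, 7.84% and 7.36%. In oxidative wild type it was 14.2%, 13.3%, 12.2%, 12.85% and 11.3%. In ECKO, libraries 1 and 2 held the highest sums and shares, and libraries 4 and 5 the lowest. In wild type, libraries 1, 2 and 4 lay above libraries 3 and 5 in both. Y-linked RNA in oxidative ECKO was likewise higher in libraries 1, 2 and 3 than in libraries 4 and 5. The part of the mitochondrial share or of sex-specific RNA in the result was not tested. With Atf4 deleted, the sum was 21.2% of the wild type level in oxidative and 29.4% in glycolytic muscle.

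**Figure D1:**
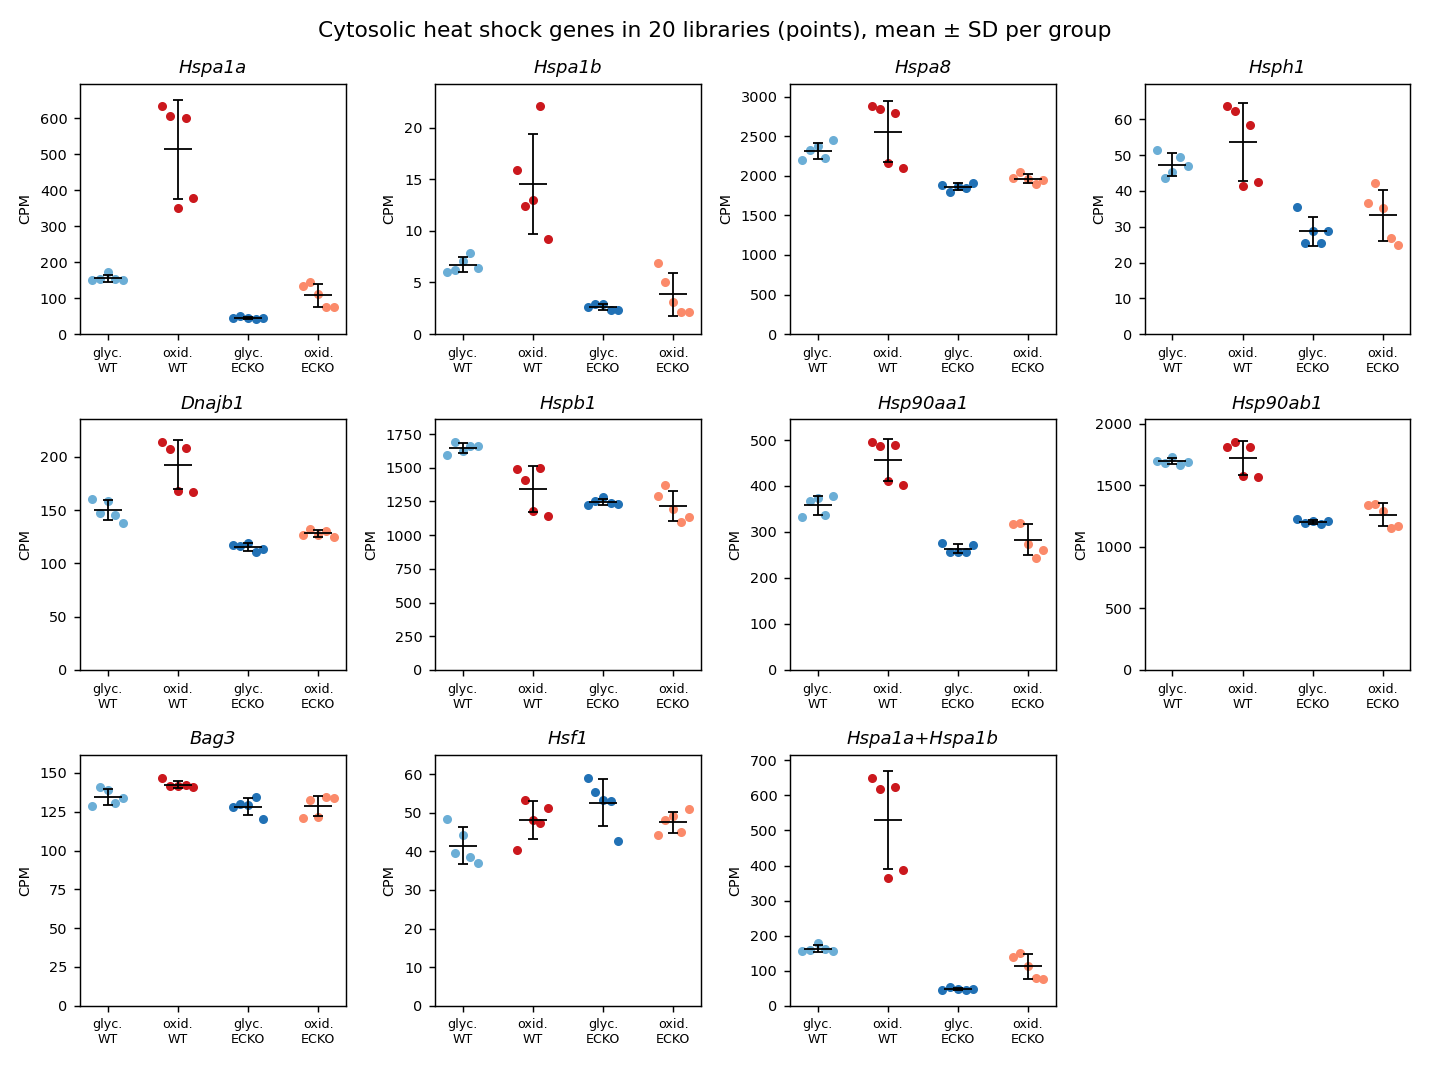
Level of each heat shock gene in CPM (vertical axis from 0) in the 4 groups, 1 point per library in the order 1 to 5, with the group mean and SD in black. The Hspa1a and Hspa1a+Hspa1b panels show the widest separation of groups, and Bag3 the narrowest. In the Hspa1b panel oxidative ECKO overlaps both glycolytic groups.

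In edgeR's quasi-likelihood test with Benjamini-Hochberg adjustment, Hspa1a+Hspa1b was higher in oxidative than in glycolytic wild type by 1.70 ± 0.16 (SE, adjusted p = 3.11e-09) on the log2 scale, and higher in oxidative than in glycolytic ECKO by 1.23 ± 0.17 (SE, adjusted p = 8.29e-06). ECKO lay below wild type, with a log2 fold change of -2.25 ± 0.16 (SE, adjusted p = 2.74e-11) in oxidative and -1.77 ± 0.17 (SE, adjusted p = 8.36e-09) in glycolytic muscle. In oxidative libraries with fibroblast markers below and at or above 200 CPM, the wild type muscle difference was 1.96 and 1.21, the ECKO muscle difference 1.61 and 0.92, and the genotype effect -2.12 and -2.07, with calls in each. With oxidative ECKO libraries 4 and 5 alone, the ECKO muscle difference was smaller, 0.70 ± 0.16 (adjusted p = 0.00229). The genotype effect in oxidative muscle was then -2.77 ± 0.17 (adjusted p = 4.99e-13). The difference between the 2 genotype effects, the interaction, was -0.48 ± 0.23 and was not called (adjusted p = 0.148). It was called in oxidative libraries with fibroblast markers below 200 CPM (-0.35 ± 0.08, adjusted p = 0.00116), with ECKO libraries 4 and 5 as the oxidative ECKO group (-0.997 ± 0.196, adjusted p = 0.000386) and without the low-count filter (-0.45, adjusted p = 0.0206). In the at least 200 CPM set it was -0.30 ± 0.13 (adjusted p = 0.125).

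Hspa1a made up nearly the whole of the sum. Its log2 fold changes were 1.72 ± 0.16 between the wild type muscles, 1.26 ± 0.17 between the ECKO muscles, -2.26 ± 0.16 for ECKO in oxidative and -1.79 ± 0.17 in glycolytic muscle (adjusted p from 2.14e-11 to 5.68e-06). Hspa1b held 2.01% to 6.06% of the sum in a library. It stood at 6.04 to 7.86 CPM in glycolytic wild type, 9.26 to 22.1 in oxidative wild type, 2.33 to 2.90 in glycolytic ECKO and 2.10 to 6.93 in oxidative ECKO, the last of which overlapped glycolytic ECKO and glycolytic wild type. Hspa1b was called in 3 comparisons, at 1.11 ± 0.23 (SE, adjusted p = 0.000456) between the wild type muscles, -1.95 ± 0.25 (SE, adjusted p = 6.47e-07) for ECKO in oxidative and -1.36 ± 0.28 (SE, adjusted p = 0.000453) in glycolytic muscle. It was not called between the ECKO muscles (0.53 ± 0.30 SE, adjusted p = 0.241). That last value turned to -0.10 in the set with at least 200 CPM of fibroblast markers, and was 1.22 ± 0.23 (adjusted p = 0.000168) in the set below. The interaction of Hspa1b (-0.59 ± 0.38 SE, adjusted p = 0.29) was called in the set with at least 200 CPM (-0.82 ± 0.28, adjusted p = 0.0361) and with oxidative ECKO libraries 4 and 5 alone (-1.42 ± 0.34, adjusted p = 0.00273). It was also called without oxidative ECKO library 1 (adjusted p = 0.0406). The interaction of Hspa1a (-0.47 ± 0.23 SE, adjusted p = 0.155) was called in the set below (-0.35 ± 0.08, adjusted p = 0.00126) and with libraries 4 and 5 alone (-0.98 ± 0.20, adjusted p = 0.000544). It was called without the low-count filter as well. Hspa1a also shares 134 stretches of 100 bases with Hspa1l, and 89 of these occur in Hspa1b as well. Hspa1l did not exceed 1.07 CPM in any library, and the opposite-strand gene Gm20481, which overlaps Hspa1a, did not exceed 0.274 CPM.

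Hspa8 (ENSMUSG00000015656.17, chromosome 9, 40800984 to 40810087, plus strand), the constitutive HSP70, was far more abundant and moved less. Libraries 1 to 5 held 2194, 2331, 2373, 2231 and 2446 CPM in glycolytic wild type and 2877, 2840.4, 2167, 2797 and 2099 in oxidative wild type. They held 1889, 1799, 1872, 1839.7 and 1908 CPM in glycolytic ECKO and 1971, 2045, 1957, 1897 and 1947 in oxidative ECKO. Each ECKO group lay below the wild type group of its muscle without overlap, with a log2 fold change of -0.38 ± 0.07 (SE, adjusted p = 7.36e-05) in oxidative and -0.31 ± 0.07 (SE, adjusted p = 0.000817) in glycolytic muscle. Between the wild type muscles the groups overlapped and the difference was not called (0.14 ± 0.07 SE, adjusted p = 0.111), nor was that between the ECKO muscles (0.08 ± 0.07 SE, adjusted p = 0.488). In wild type, the oxidative libraries with low fibroblast markers stood above glycolytic muscle (0.29 ± 0.03, adjusted p = 3.75e-08) and those with high markers below it (-0.12 ± 0.04, adjusted p = 0.0498). The wild type muscle difference was also called when library 3 (0.20, adjusted p = 0.0199) or library 5 (0.21, adjusted p = 0.0095) of oxidative wild type was left out. The interaction of Hspa8 likewise changed direction between the sets, from -0.19 ± 0.05 (adjusted p = 0.00754) in the low to 0.17 ± 0.06 (adjusted p = 0.0404) in the high set.

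The J-domain gene and the exchange factors differed among themselves. Dnajb1 (ENSMUSG00000005483.10, chromosome 8, 83608193 to 83612653, plus strand), whose protein hands clients to HSP70, stood at 160.1, 147, 159, 146 and 138 CPM in glycolytic wild type and 214, 207, 168, 208 and 167 in oxidative wild type, so every oxidative library was above every glycolytic one. In ECKO it stood at 117, 116, 119.6, 111 and 113 CPM in glycolytic and 127, 133, 127, 130.1 and 125 in oxidative muscle. It rose in oxidative wild type by 0.36 ± 0.06 (SE, adjusted p = 3.63e-05) and was lower in ECKO in both muscles, with a log2 fold change of -0.59 ± 0.06 (SE, adjusted p = 2.31e-08) in oxidative and -0.38 ± 0.06 (SE, adjusted p = 3.84e-05) in glycolytic muscle. Between the ECKO muscles its groups did not overlap, yet the difference of 0.15 ± 0.06 missed the threshold (adjusted p = 0.101). It passed when these groups were fitted alone (0.16, adjusted p = 0.0159) and in the set below 200 CPM (0.16, adjusted p = 0.0356). The interaction of Dnajb1 (-0.21 ± 0.09 SE, adjusted p = 0.0813) was called in the set below 200 CPM (-0.32 ± 0.07, adjusted p = 0.00116). It was also called without oxidative wild type library 3 or 5 (lowest adjusted p = 0.0188).

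Hsph1 (ENSMUSG00000029657.15, chromosome 5, 149614287 to 149636376, minus strand), an HSP110 exchange factor, stood at 51.5, 43.7, 45.2, 49.4 and 47.0 CPM in glycolytic wild type and 63.6, 62.2, 41.5, 58.5 and 42.5 in oxidative wild type. In ECKO it stood at 35.4, 25.4, 28.8, 25.4 and 28.9 CPM in glycolytic and 36.6, 42.2, 35.3, 27.0 and 24.9 in oxidative muscle, and oxidative ECKO overlapped oxidative wild type by its highest library. Hsph1 was lower in ECKO, with a log2 fold change of -0.70 ± 0.13 (SE, adjusted p = 0.000102) in oxidative and -0.72 ± 0.13 (SE, adjusted p = 0.000133) in glycolytic muscle. It was not called between muscles in wild type (0.18 ± 0.12 SE, adjusted p = 0.298) or ECKO (0.20 ± 0.14 SE, adjusted p = 0.356). In wild type the low fibroblast set was above glycolytic muscle (0.38 ± 0.08, adjusted p = 0.000408) while the value of the high set was -0.17 ± 0.11. In ECKO the low set was called higher than glycolytic muscle (0.45 ± 0.10, adjusted p = 0.00163). The value was 0.02 ± 0.11 in the high set and -0.15 ± 0.15 with oxidative ECKO libraries 4 and 5 alone. Bag3 (ENSMUSG00000030847.8, chromosome 7, 128523616 to 128546981, plus strand), an exchange factor that links HSP70 to autophagy, had the narrowest range of all members relative to its level: 129 to 141 CPM in glycolytic wild type, 141 to 147 in oxidative wild type, 120.1 to 134 in glycolytic ECKO and 121 to 134 in oxidative ECKO. It was called once, lower in ECKO in oxidative muscle, with a log2 fold change of -0.15 ± 0.04 (SE, adjusted p = 0.00916). The call was lost in the high fibroblast set (-0.12, adjusted p = 0.154) and with ECKO libraries 4 and 5 alone (-0.09, adjusted p = 0.221). In the deposited TPM the direction was the opposite, with 71.9 TPM in oxidative ECKO against 66.9 in oxidative wild type and 4 of 5 ECKO libraries above every wild type library. In glycolytic muscle its difference was -0.07 ± 0.04 (SE, adjusted p = 0.249).

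The HSP90 genes were lower in ECKO in both muscles, and the inducible one also differed between the wild type muscles. Hsp90aa1 (ENSMUSG00000021270.13, chromosome 12, 110690605 to 110702728, minus strand), the inducible HSP90 gene, stood at 333, 366, 374, 338 and 378 CPM in glycolytic and 495, 486, 410.4, 489 and 403 in oxidative wild type. It stood at 276, 256, 257, 258 and 271 CPM in glycolytic and 317, 320.2, 274, 244 and 262 in oxidative ECKO. The oxidative wild type libraries lay above all libraries of the other groups, and each ECKO group lay below its wild type group. Hsp90aa1 rose in oxidative wild type by 0.35 ± 0.07 (SE, adjusted p = 0.000292) and was lower in ECKO, with a log2 fold change of -0.69 ± 0.07 (SE, adjusted p = 1.62e-08) in oxidative and -0.44 ± 0.07 (SE, adjusted p = 2.45e-05) in glycolytic muscle. It was not called between the ECKO muscles (0.10 ± 0.07 SE, adjusted p = 0.355). It was higher in oxidative ECKO in the low fibroblast set (0.27 ± 0.05, adjusted p = 0.000211), against -0.02 ± 0.05 in the high set. Its interaction (-0.25 ± 0.10 SE, adjusted p = 0.0742) was called with oxidative ECKO libraries 4 and 5 alone (-0.41 ± 0.09, adjusted p = 0.00194). The interaction of Hsp90aa1 was also called with the transcript length offset. It was called, too, without oxidative ECKO library 1 or 2 or oxidative wild type library 3 or 5 (lowest adjusted p = 0.0309). Of the 3982 stretches of 100 bases in its transcripts, 31.6% also occur in the pseudogene Gm12346, which did not exceed 0.938 CPM.

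Hsp90ab1 (ENSMUSG00000023944.14, chromosome 17, 45567775 to 45573271, minus strand), the constitutive HSP90 gene, was held within 1667 to 1731 CPM in glycolytic wild type and 1567 to 1848 in oxidative wild type, which overlapped (0.02 ± 0.05 SE, adjusted p = 0.764). It stood at 1182 to 1223 CPM in glycolytic ECKO and 1152 to 1346 in oxidative ECKO, below every wild type library. The log2 fold change was -0.45 ± 0.05 (SE, adjusted p = 1.15e-07) in oxidative and -0.49 ± 0.05 (SE, adjusted p = 3.53e-08) in glycolytic muscle. In wild type the oxidative libraries with low fibroblast markers were above glycolytic muscle (0.11 ± 0.03, adjusted p = 0.00536) and those with high markers at -0.11 ± 0.05 (adjusted p = 0.0833). Between the ECKO muscles Hsp90ab1 was not called (0.07 ± 0.05 SE, adjusted p = 0.423). It was higher in oxidative ECKO in the low set (0.16 ± 0.03, adjusted p = 0.000849), against -0.00205 in the high set.

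Hspb1 (ENSMUSG00000004951.10, chromosome 5, 135887919 to 135889563, plus strand), the small heat shock protein and the most abundant member per transcript length, was the 1 member called lower in oxidative than in glycolytic wild type. Libraries 1 to 5 held 1595, 1689, 1627, 1658 and 1665 CPM in glycolytic wild type and 1489.8, 1409.7, 1176, 1498 and 1146 in oxidative wild type. They held 1225, 1257, 1281, 1241 and 1232 CPM in glycolytic ECKO and 1287, 1372, 1193, 1101 and 1136 in oxidative ECKO. All oxidative wild type libraries were below all glycolytic wild type libraries (-0.29 ± 0.07 SE, adjusted p = 0.00109). Hspb1 was lower in ECKO in glycolytic muscle (-0.40 ± 0.07 SE, adjusted p = 3.79e-05), without overlap. It was not called in oxidative muscle (-0.14 ± 0.07 SE, adjusted p = 0.105). There it was called in the set below 200 CPM (-0.14 ± 0.04, adjusted p = 0.0112) and with ECKO libraries 4 and 5 alone (-0.27 ± 0.07, adjusted p = 0.00843). It was also called without oxidative ECKO library 2 (-0.19, adjusted p = 0.0326) or oxidative wild type library 3 (-0.19, adjusted p = 0.0318) or 5 (-0.20, adjusted p = 0.018). In the deposited TPM this difference ran the other way, with 2283 TPM in oxidative ECKO against 2090.2 in oxidative wild type. Hspb1 was not called between the ECKO muscles (-0.03 ± 0.07 SE, adjusted p = 0.783), but was lower in oxidative ECKO in the set with at least 200 CPM (-0.13 ± 0.04, adjusted p = 0.021), against 0.09 ± 0.04 in the set below. The interaction was 0.26 ± 0.09 (SE, adjusted p = 0.0469). It lost its call when any of 14 of the 20 libraries was left out (adjusted p = 0.0558 to 0.104), and kept it without oxidative wild type library 1, 2 or 4, oxidative ECKO library 4 or 5, or glycolytic ECKO library 3. With oxidative ECKO libraries 4 and 5 alone it was 0.14 (adjusted p = 0.319).

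Hsf1 (ENSMUSG00000022556.11, chromosome 15, 76477422 to 76501913, plus strand), the transcription factor of the heat shock response, moved apart from the chaperone genes. Libraries 1 to 5 held 48.4, 39.5, 44.1, 38.6 and 37.0 CPM in glycolytic wild type and 40.4, 53.4, 48.1, 47.3 and 51.2 in oxidative wild type. They held 59.0, 55.4, 53.2, 53.0 and 42.6 CPM in glycolytic ECKO and 44.3, 48.2, 49.1, 44.9 and 50.9 in oxidative ECKO, and the groups overlapped in all 4 comparisons. Hsf1 was higher in glycolytic ECKO than in glycolytic wild type (0.35 ± 0.08 SE, adjusted p = 0.00215), while in oxidative muscle the difference was -0.01 ± 0.08 (SE, adjusted p = 0.919). The interaction was -0.37 ± 0.12 (SE, adjusted p = 0.0243), and it missed the threshold without glycolytic ECKO library 1 or 3 or glycolytic wild type library 5 (adjusted p = 0.052 to 0.0558). It also missed it in the low fibroblast set (-0.38, adjusted p = 0.0555) and with oxidative ECKO libraries 4 and 5 alone (-0.35, adjusted p = 0.07). Between the wild type muscles Hsf1 was called higher in oxidative muscle (0.22 ± 0.08 SE, adjusted p = 0.044). The call was lost without oxidative wild type library 2, 3, 4 or 5 or glycolytic wild type library 2, 4 or 5 (adjusted p = 0.0589 to 0.127), and in the low fibroblast set (0.19 ± 0.09, adjusted p = 0.136). RNA levels of Hsf1 say nothing of the activity of its protein.

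**Figure D2:**
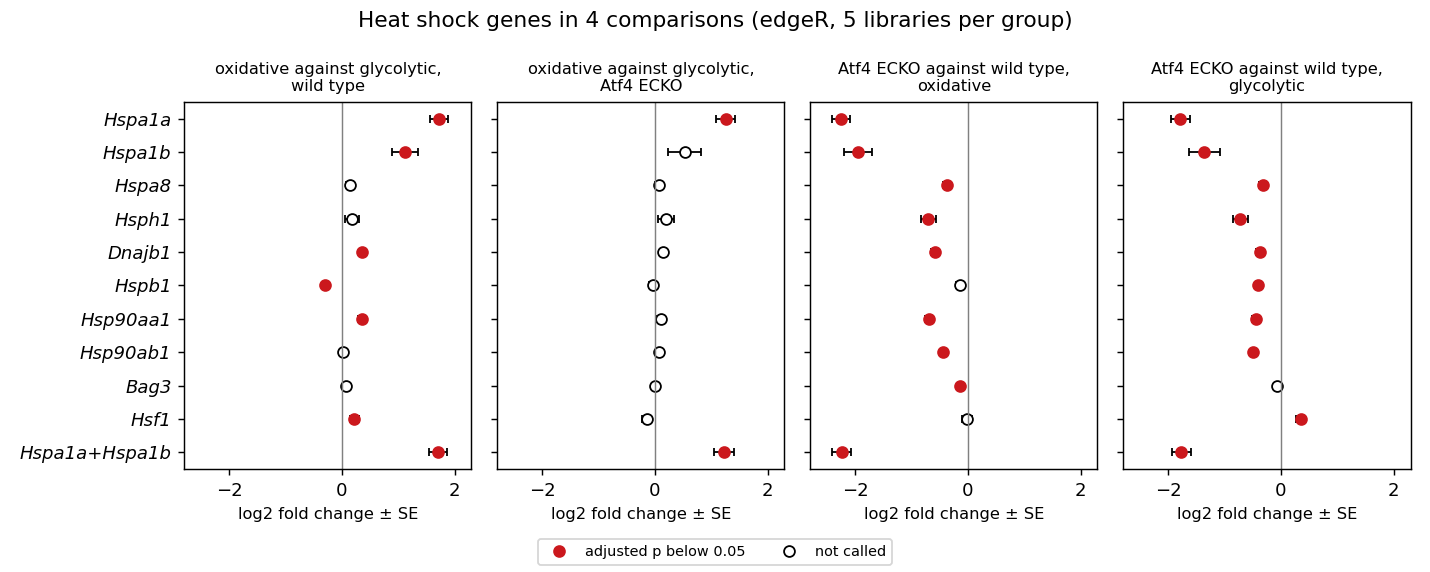
Log2 fold change (horizontal axis) of each heat shock gene in the 4 comparisons of 2 groups, with bars for ± SE from edgeR on 5 libraries per group; filled red points passed an adjusted p of 0.05 and open points did not. In ECKO against wild type most points lie left of 0, and in the oxidative against glycolytic comparison of wild type Hspb1 lies left of 0 and Hspa1a furthest right.

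Counted over the 10 genes, 5 were higher and 1 was lower in oxidative than in glycolytic wild type, where edgeR called 32.4% of all genes tested, 16.4% higher and 15.9% lower. Between the ECKO muscles 1 was higher (Hspa1a) and none was lower, where 18.4% of all genes were called, 8.31% higher and 10.1% lower. In ECKO against wild type, 8 were lower and none was higher in oxidative muscle, where 32% of all genes were called, 14.6% higher and 17.4% lower. In glycolytic muscle 8 were lower and 1 was higher (Hsf1), where 29% of all genes were called, 13.9% higher and 15.1% lower. In the interaction 1 was higher (Hspb1) and 1 was lower (Hsf1), where 22.6% of all genes were called, 10.1% higher and 12.5% lower. Median log2 fold changes of the 10 genes were 0.20, 0.09, -0.52, -0.42 and -0.15 in this order of comparisons, against medians of all genes tested between -0.0033 and 0.0156. Between the ECKO muscles 6 of the 10 genes were called, each higher, in the set with fibroblast markers below 200 CPM, and 1 was higher and 1 lower in the other set, where 18.3% and 17.2% of all genes were called in either direction. In the genotype comparison of oxidative muscle the low set had 9 lower and the high set 7 lower, where 26% and 22.5% of all genes were called. Genotype comparisons share their groups with the muscle comparisons, so the counts are not independent of each other.

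Within the oxidative groups, 7 of the 10 genes in wild type and 7 in ECKO were higher in every library with fibroblast markers below 200 CPM than in every library above, none was lower in every one, and 3 overlapped. Of all 13971 genes tested, 15.9% were higher and 15.3% lower in this way in wild type, and 18.3% and 18.1% in ECKO. The means of the low libraries over those of the high were 1.67-fold for Hspa1a+Hspa1b in wild type and 1.62-fold in ECKO, 1.33-fold and 1.04-fold for Hspa8, and 1.26-fold and 1.16-fold for Hspb1. Bag3 and Hsf1 overlapped in both genotypes. The handling genes did not follow in one direction: they were lower in the high fibroblast libraries of wild type (5486 and 5672 against 6775 to 7317 CPM) and higher in those of ECKO (3613 to 4282 against 3188 and 3398 CPM). The mitochondrial share was 12.85% to 14.2% in the low and 11.3% and 12.2% in the high libraries of wild type. In ECKO it was 9.97% and 10.6% against 7.36% to 8.46%. Summed muscle fibre markers were 109 to 140 CPM in the low and 224 and 227 in the high libraries of wild type. In ECKO they were 219 and 237 against 248 to 298 CPM. Y-linked RNA in ECKO was 64.6 and 65.6 against 0.932 to 32.2 CPM. The part of fibroblast markers or of any of these in the differences was not tested. The coefficient of variation of the 10 genes had a median of 12.4% in oxidative wild type and 8.30% in oxidative ECKO, against 6.02% and 3.83% in the glycolytic groups.

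**Figure D3:**
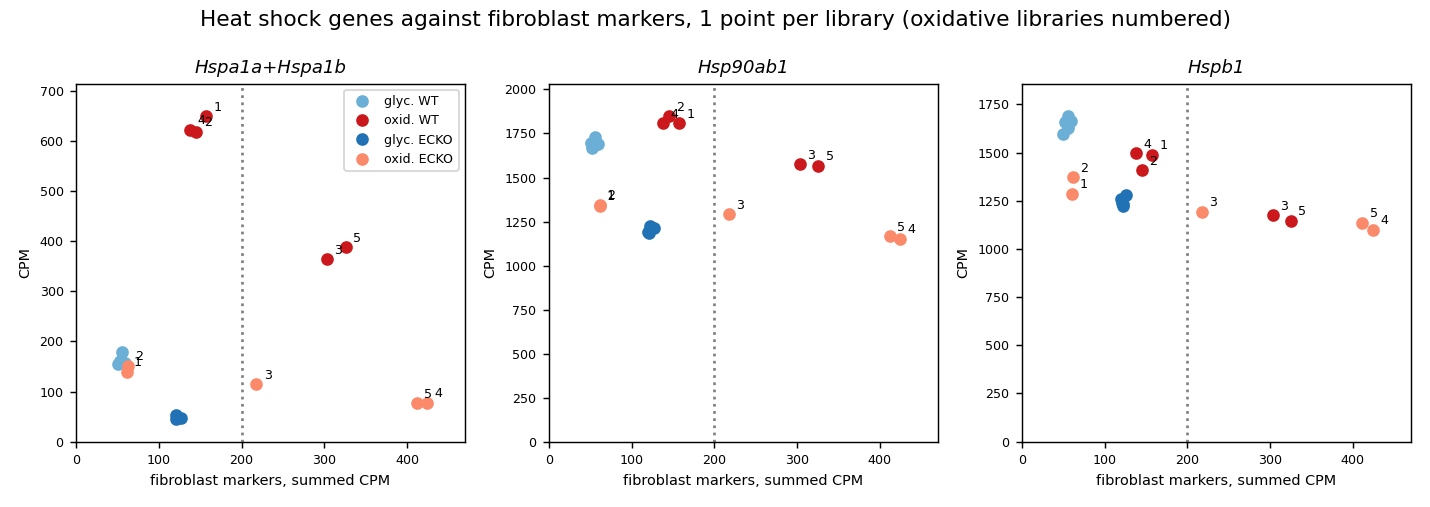
Level of Hspa1a+Hspa1b, Hsp90ab1 and Hspb1 in CPM (vertical axis from 0) against the summed CPM of 7 fibroblast markers (horizontal axis), 1 point per library, with oxidative libraries numbered and a dotted line at 200 CPM. Oxidative wild type libraries 3 and 5 and oxidative ECKO libraries 3, 4 and 5 lie to the right of the line and below the other oxidative libraries of their group.

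The ratio of an inducible to a constitutive member of the same family does not depend on scaling between libraries. The log2 ratio of Hspa1a+Hspa1b to Hspa8 was -2.30 ± 0.19 (SD, n = 5) in oxidative and -3.83 ± 0.09 in glycolytic wild type, and -4.19 ± 0.43 in oxidative and -5.29 ± 0.11 in glycolytic ECKO. It did not overlap between groups in any of the 4 comparisons, with differences from -1.88 for ECKO in oxidative muscle to 1.53 between the wild type muscles. Each had a 2-sided exact permutation p of 0.0079, the smallest that 5 against 5 libraries allow, and 0.0106 after adjustment over the 12 ratio tests. The log2 ratio of Hsp90aa1 to Hsp90ab1 was higher in oxidative than in glycolytic wild type by 0.33 and lower in ECKO in oxidative muscle, with a difference of -0.24 (exact permutation p = 0.0079, adjusted 0.0106 for both). It overlapped between the ECKO muscles, with a difference of 0.03 (exact permutation p = 0.444, adjusted 0.444), and between genotypes in glycolytic muscle, with 0.05 (exact permutation p = 0.222, adjusted 0.267). The ratio of Hspa1a to Hspa1b, which rests on the split of shared reads, was higher in oxidative muscle of both genotypes, by 0.62 and 0.82, and lower in glycolytic ECKO than in glycolytic wild type, with a difference of -0.44 (exact permutation p = 0.0079, adjusted 0.0106 for these 3). For this ratio oxidative ECKO overlapped oxidative wild type (-0.25, exact permutation p = 0.325, adjusted 0.355). Without glycolytic wild type library 4 the wild type difference missed the threshold (adjusted exact permutation p = 0.0529).

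**Figure D4:**
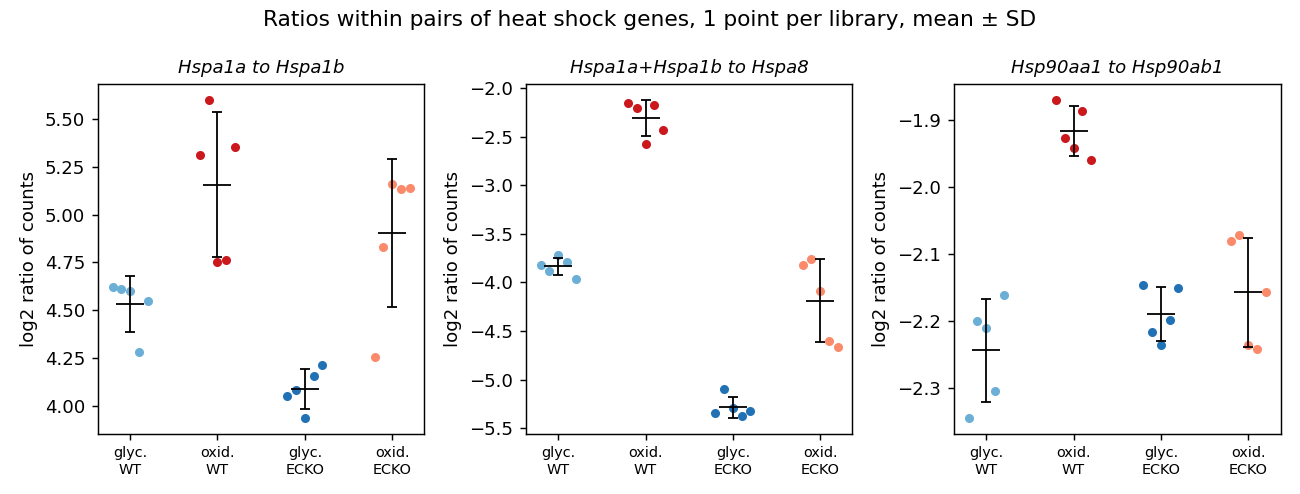
Log2 ratio of estimated counts within 3 pairs of heat shock genes (vertical axes, which do not start at 0) in the 4 groups, 1 point per library, with the group mean and SD in black. The ratio of Hspa1a+Hspa1b to Hspa8 is highest in oxidative wild type and lowest in glycolytic ECKO. Between them, glycolytic wild type and oxidative ECKO overlap. The ratio of Hsp90aa1 to Hsp90ab1 sets oxidative wild type above the rest.

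In the deposited TPM values, which correct for transcript length and so allow genes to be compared, Hspb1 led in every group (2090 TPM ± 208 in oxidative wild type and 3007 ± 82.6 in glycolytic wild type, SD, n = 5), followed by Hspa8, Hsp90ab1 and Hsp90aa1. TPM are not rescaled between libraries as CPM are here: the median log2 ratio of mean TPM over all genes was -0.21 between the wild type muscles, -0.08 between the ECKO muscles, and 0.26 and 0.13 for ECKO in oxidative and glycolytic muscle. In these 4 comparisons, 11 of 40 member differences had opposite directions in TPM and in the edgeR test, among them 1 of the 24 called, that of Bag3 (log2 ratio 0.10). Hspa1a ranked 5 of 10 in wild type, at 75.8 TPM ± 4.37 in glycolytic and 216 ± 52.4 in oxidative muscle. In ECKO it ranked 8 in glycolytic (23.6 TPM ± 1.43) and 7 in oxidative muscle (53.4 ± 14.3). Bag3, Dnajb1, Hsf1 and Hsph1 stood between 12.1 and 75.1 TPM in all groups, and Hspa1b was lowest at 1.42 to 6.37 TPM. The share of the members' summed TPM held by Hspa1a was 3.9% in oxidative and 1.17% in glycolytic wild type, and 1.05% and 0.446% in ECKO. By transcript, Hspa1a, Hspa1b and Bag3 have 1 annotated form each, and the leading form of Hspb1 took 99.7% to 99.8% of its estimated counts. The leading form of Hspa8 took 67.5% to 79.3% by group, and that of Hsp90ab1 85.7% to 88.7%. The leading form of Hsp90aa1 took 52.3% to 56.6% of its counts and a retained-intron form 18.3% to 20.2%. The leading form of Hsph1 ranged from 47.4% ± 28.0 in glycolytic ECKO to 67.3% ± 12.7 in oxidative ECKO, within the spread of its libraries. The leading form of Hsf1 took 53.5% to 55.4%. These splits are estimates over forms that share most of their sequence and were not tested.

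Other chaperones and cochaperones of the cytosol were described from lists. Of all genes, the shares called higher and lower were 16.4% and 15.9% between the wild type muscles, 8.31% and 10.1% between the ECKO muscles, 14.6% and 17.4% for ECKO in oxidative and 13.9% and 15.1% in glycolytic muscle. Of the 12 HSP70 partners tested, 1 was higher and 2 were lower in oxidative wild type, 2 and 1 between the ECKO muscles, 2 and 2 for ECKO in oxidative and none and 5 in glycolytic muscle. Hspa4, an HSP110 relative of Hsph1, rose in oxidative wild type (0.35 ± 0.06, adjusted p = 2.35e-05) and fell in ECKO in oxidative muscle (-0.57 ± 0.06, adjusted p = 1.17e-08). Hspa12b, an endothelial HSP70 relative, was lower in oxidative wild type (-0.52 ± 0.05, adjusted p = 2.29e-09). Of the 11 J-domain genes, 5 were higher in oxidative wild type and none was lower, and for ECKO in oxidative muscle 1 was higher and 6 were lower. In glycolytic muscle 1 was higher and 2 were lower, and between the ECKO muscles likewise 1 and 2. Dnajb4 was higher in oxidative wild type (0.39 ± 0.09, adjusted p = 0.000732), lower in oxidative ECKO than oxidative wild type (-0.68 ± 0.09, adjusted p = 7.9e-07) and lower in oxidative than glycolytic ECKO (-0.47 ± 0.09, adjusted p = 0.000402). Dnaja1, an HSP70 partner, was lower in ECKO in glycolytic muscle (-0.54 ± 0.09, adjusted p = 3.28e-05). The median log2 fold change of the J-domain list was 0.07 between the wild type muscles, 0.06 between the ECKO muscles, -0.16 for ECKO in oxidative and -0.14 in glycolytic muscle, and that of the HSP70 partners was -0.04, 0.05, 0.02 and -0.15.

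Of the 15 HSP90 cochaperones, 2 were higher and 3 lower in oxidative wild type, and none was called between the ECKO muscles. For ECKO, 2 were higher and 5 lower in oxidative and 1 and 5 in glycolytic muscle, with medians of -0.01, -0.02, -0.01 and -0.03. Fkbp5, a cochaperone of steroid receptors that glucocorticoids induce, rose in ECKO in oxidative muscle (1.14 ± 0.22, adjusted p = 0.000174), from 14.2 to 31.8 CPM. Fkbp4, its counterpart, fell in ECKO in glycolytic muscle (-0.43 ± 0.07, adjusted p = 1.51e-05), as did Ptges3, the p23 cochaperone (-0.35 ± 0.05, adjusted p = 1.3e-06). Of the 6 small heat shock genes tested, 3 were lower and none higher in oxidative wild type, and 2 were higher between the ECKO muscles. For ECKO, 1 was higher in oxidative muscle and 3 were lower in glycolytic muscle, with medians of -0.27, 0.33, 0.05 and -0.78. Cryab, a small heat shock protein of muscle and lens, fell in ECKO in glycolytic muscle from 25.6 to 12.4 CPM (-1.05 ± 0.11, adjusted p = 2.25e-08), and Hspb8, a partner of Bag3, fell with it (-1.24 ± 0.15, adjusted p = 6.39e-07). Several genes of this list are also expressed by muscle fibres, whose summed markers were 57.4 to 64.7 CPM in glycolytic wild type, 109 to 227 in oxidative wild type, 148 to 160.1 in glycolytic ECKO and 219 to 298 in oxidative ECKO, and their part in the result was not tested. Of the 8 chaperonin subunits, which fold actin and tubulin, 2 were higher and 2 lower in oxidative wild type, and 4 lower between the ECKO muscles. For ECKO, 1 was higher and 4 lower in oxidative and 1 and 1 in glycolytic muscle, with medians of 0.07, -0.16, -0.12 and 0.08. In the heat shock factor list, Hsf2, a relative of Hsf1, was lower in ECKO in oxidative muscle (-0.34 ± 0.13, adjusted p = 0.0425), and Hsbp1, which binds Hsf1, was not called in any comparison.

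Over the 20 libraries, the genes whose log2 CPM was most like that of Hspa1a+Hspa1b among 9831 genes averaging 4 CPM or more were Zfand5 (r = 0.975), Ctsb (r = 0.973), Wars (r = 0.970) and Hspa5 (r = 0.967), then Ipmk, Ndel1, Ripk3, Zfp36, Pgm2 and Psmc1 (r = 0.948 for the last). Mean levels of Zfand5 were 244 CPM in glycolytic and 311 in oxidative wild type, and 193 and 237 in ECKO. These r values describe points that fall into groups and share library depth, so each includes the difference between groups. With the group means taken out, Nfkbia (r = 0.965), Bcl2l1 (r = 0.947) and Tbx3 (r = 0.941) led, followed by Mcf2l, Rpgrip1, Ablim1, Serinc3, Socs3, Car4 and Dusp16, and none of the first 10 was in both lists. Among the members, again with group means taken out, 33 of all 45 pairs had a positive r, with a median of 0.658. All 28 pairs of the 8 genes other than Bag3 and Hsf1 had a positive r, from 0.359 to 0.960 with a median of 0.763. The 9 pairs with Bag3 lay between -0.30 and 0.13, and the 9 with Hsf1 between -0.28 and 0.12. The share of positive r over pairs of all genes was not computed. Taking out group means keeps the differences between the fibroblast sets, so these r values are not separate from those differences.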

How the data were processed

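RNA of sorted CD31-positive, CD45-negative endothelial cells was sequenced from 1 end after a stranded poly(A) library kit, per the labels' protocols. The authors deposited, for each of 20 libraries, estimated counts and TPM per transcript; the submitters' processing notes name kallisto and DESeq2, without versions, and a human build, GRCh38.p13. The identifiers are those of mouse Ensembl transcripts: GENCODE M21 (GRCm38) held 128643 of 129439, and the others took no more than 0.221% of any library. Estimated counts were summed per gene and rounded. No source used here gives the strand setting, so overlapping and near-identical genes are uncertain.

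All 20 libraries entered 1 fit of 4 group means in edgeR 4.0.16 (R 4.3.3; quasi-likelihood test, TMM, filterByExpr), with Benjamini-Hochberg adjustment over 13971 genes and a call at an adjusted p below 0.05. Hspa1a+Hspa1b replaced its parts as 1 entry in a second fit. The SE is the log2 fold change over the square root of F and is approximate. Within-pair ratios (0.5 counts added) were tested by 2-sided exact permutation over 252 assignments. Alternatives were DESeq2 1.42.0, voom in limma 3.58.1, RLE scaling, keeping genes with low counts, a transcript length offset, fitting each pair of groups by itself, a block for the replicate number, 5 counts added or TPM for the ratios, leaving out mitochondrial, X, Y and the most abundant genes, oxidative ECKO libraries 4 and 5 alone, each library left out in turn, and, added after seeing the data, oxidative libraries split at 200 CPM of fibroblast markers. The tests were checked on simulated data. Libraries of a group differed by more than counting noise (chi-square per degree of freedom 2.63 to 28.3). Each was counted as 1 replicate, but this excess does not show that the libraries came from separate animals.

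Named genes are the 10 members, Atf4, up to 4 genes per list and comparison with the smallest adjusted p, and the 10 most alike. The members and lists were chosen with earlier results of these data known.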

Additional observations from a re-analysis of the deposited data

Results flagged for a closer look

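In glycolytic wild type, library 3 stood apart from its group in Hspa1a, with 173 CPM against 149.9 to 153 CPM in the others, and therefore also in Hspa1a+Hspa1b, with 179.9 CPM against 156 to 161 CPM. In oxidative wild type, library 1 stood apart in Bag3, with 147 CPM against 141 to 142 CPM. Of the 44 combinations of gene and group looked at for a lone far sample, chance sets about 1 in 20 apart.

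The effect of genotype differed between the muscles for Hspb1, by 0.26 on the log2 scale, and for Hsf1, by -0.37, in the interaction test of edgeR. The effect of genotype on Hspb1 was more negative in glycolytic muscle, and Hsf1 was higher in ECKO in glycolytic muscle, where its groups overlapped.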

How the results depend on the processing

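For the members and the Hspa1a+Hspa1b sum, 607 of 660 values that leave out 1 library and 497 of 550 under other alternatives kept their direction and side of the threshold; 17 and 22 changed direction, 2 of them with a call on either side. With the replicate block, counts of called members were 5, 1, 8, 9 and 2 in the order of comparisons given in the report, against 6, 1, 8, 9 and 2 without; the call lost was that of Hsf1 between the wild type muscles (adjusted p = 0.0572). Same-numbered libraries correlated at -0.059 to 0.099 in their deviations, so the numbers were not taken to pair the libraries. With the replicate numbers as pairs, exact sign flips called 0 of 12 ratios (smallest adjusted p 0.0833), against 9 by permutation.

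The count between the ECKO muscles (1) was 2 with the compared groups alone, 6 below and 2 at or above 200 CPM of fibroblast markers, and that of the interaction (2) was 4 in either fibroblast set and 0 to 3 with 1 library left out. The interaction of Hspa1a+Hspa1b (-0.48, not called) was called without the low-count filter (-0.45), with oxidative ECKO libraries 4 and 5 alone (-0.997) and below 200 CPM (-0.35). Near-0 values changed sign: with limma-voom Bag3 between the ECKO muscles (-0.0021); with the length offset Hspb1 (0.0146) and Hsp90ab1 (-0.00035) between the ECKO muscles, and Hsph1 (-0.14) and Hsp90ab1 (-0.048) in the interaction; with the compared groups alone Hsf1 for ECKO in oxidative muscle (0.00049). With ECKO libraries 4 and 5 alone, Hspa1b (-0.30), Hsph1 (-0.15), Hsp90aa1 (-0.061) and Hsp90ab1 (-0.054) turned between the ECKO muscles, Hsf1 (0.0020) for ECKO in oxidative muscle, and Hsph1 (-0.32) and Hsp90ab1 (-0.075) in the interaction. Below 200 CPM, Hspb1 (0.090) and Bag3 (-0.026) turned between the ECKO muscles. At or above 200 CPM, Hspa8 (-0.12), Hsph1 (-0.17) and Hsp90ab1 (-0.11) turned between the wild type muscles, Hspa1b (-0.099), Hsp90aa1 (-0.023) and Hsp90ab1 (-0.0020) between the ECKO muscles, and Hspa8 (0.17) in the interaction. With 1 library left out, Hsf1 for ECKO in oxidative muscle ranged from -0.071 to 0.021, Bag3 between the ECKO muscles from -0.022 to 0.024, and the Hsph1 interaction from -0.067 to 0.12. The cause was not tested. Fibroblast sets leave 2 or 3 libraries in a group, and Hspb1 and Hsf1 interactions rest on margins near the threshold. Depth limits Hspa1b most, whose level was 2.10 CPM in the lowest library.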

Other observations

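Of 6 chaperones of other compartments tested, 5 were lower in ECKO in oxidative and 5 in glycolytic muscle and none was higher, where 17.4% and 15.1% of all genes were called lower, with median log2 fold changes of -0.51 and -0.33. Hspa9, the mitochondrial HSP70, stood at 492 CPM in oxidative and 202 CPM in glycolytic wild type, and at 145 and 174 CPM in ECKO, with a log2 fold change for ECKO in oxidative muscle (-1.76 ± 0.05, adjusted p = 3.28e-20) and an interaction (-1.55 ± 0.07, adjusted p = 7.89e-15) that were both called. Hspa5, the HSP70 of the endoplasmic reticulum, was lower in ECKO in oxidative (-0.54 ± 0.05, adjusted p = 4.89e-10) and glycolytic muscle (-0.35 ± 0.05, adjusted p = 1.38e-06), and Hsp90b1, the HSP90 of the same compartment, fell in glycolytic ECKO (-0.47 ± 0.05, adjusted p = 5.21e-08). Hspd1 and Hspe1, the mitochondrial chaperonin and its lid, fell in ECKO in both muscles, with log2 fold changes of -0.47 and -0.60 in oxidative and -0.31 and -0.41 in glycolytic muscle.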
